A study of Mus musculus with 14 samples.

Results

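The collagen family of the mouse aortic valve was taken as every protein-coding gene whose GENCODE symbol reads Col, a number, a and a number. This rule found 44 of the 56941 genes in the deposited count table, and it used no measured value. They were grouped as 11 fibrillar chains, 6 basement membrane chains, 9 FACIT chains (fibril-associated collagens with interrupted helices) and 18 other chains. Of the 44, 39 averaged 10 or more counts across all 14 libraries and were tested within a fit of 19145 genes. The 5 sparser chains were Col24a1, Col9a2, Col6a4, Col10a1 and Col17a1.

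Bulk RNA was sequenced from aortic valve leaflets of 14 male wild type C57BL/6J mice, all fed a Breslow Western Diet, which is hypercholesterolemic. The groups were 4 Ctrl mice without treatment, 2 LY mice, 4 AngII mice and 4 AngII+LY mice, each mouse a library of its own. AngII (angiotensin II, a vasoconstrictor peptide) was delivered by osmotic pump over 28 days at 1000 ng/kg/min, starting at an age of 8 weeks. LY272015, which blocks the serotonin receptor HTR2B, was given by intraperitoneal injection at 3 mg/kg. The sources differ on whether this was every other day or 2 times a week, and the labels of 1 LY mouse and 3 AngII+LY mice carry neighbouring compound numbers. Per the design text, pumps had been out for 48 hours in the infused mice. Elsewhere the removal is described for a subset. Whether a value stems from the infusion or from the hours after it cannot be told apart here. In whole leaflets, fewer cells of a type and less RNA per cell also cannot be told apart.

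Collagen chains wind around each other into a helix, and chains of a type are usually made together. In a valve leaflet the fibrillar types I, III and V give the fibrosa its tensile strength, type IV lies in the basement membrane under the endothelium, and types VI, VIII, XV and XVIII link cells, vessels and fibrils. Valve interstitial cells are the main source of fibrillar collagen, and its overproduction stiffens the leaflet in aortic stenosis.

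Gene counts summed to between 20990655 (AngII 4) and 73128220 (AngII 2) per library. The interstitial and fibroblast markers were all detected, and their summed share of counts was 0.914 to 1.83% for Ctrl mice, 1.13 to 1.67% for AngII mice and 0.435 to 0.854% for AngII+LY mice. Cardiomyocyte markers took 0.705 to 3.00%, 0.682 to 1.31% and 1.60 to 3.89% in the same groups. The mitochondrial share was 4.00 to 7.52% for Ctrl, 8.62 to 9.76% for LY, 9.83 to 25.5% for AngII and 10.1 to 20.2% for AngII+LY libraries. The part of these shares in the results below was not tested. Ctrl 1 stood apart through smooth muscle markers, 0.935% of its counts against 0.0236 to 0.133% in the other Ctrl mice.

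The family as a whole held between 0.216 and 0.664% of the counts of a library. The Ctrl mice averaged 0.420% ± 0.173 (SD, n = 4), the LY mice 0.349% ± 0.0681 (n = 2), the AngII mice 0.356% ± 0.12 (n = 4) and the AngII+LY mice 0.279% ± 0.0471 (n = 4), and the ranges of all groups overlapped. Fibrillar chains were the largest of the 4 classes in each library, with 0.257% ± 0.0940 in Ctrl and 0.140% ± 0.0129 in AngII+LY mice (SD, n = 4 each). The fibrillar share spanned 0.154 to 0.378% among Ctrl, 0.158 to 0.353% among AngII and 0.121 to 0.150% among AngII+LY mice, so that each AngII+LY mouse lay below every AngII and every Ctrl mouse. Over nuclear protein-coding genes alone the AngII+LY mice, at 0.155 to 0.174%, still lay below the AngII mice, the lowest of which had 0.218%, but overlapped Ctrl 3 at 0.166%. The basement membrane share did not separate these groups, at 0.0438 to 0.0553% for AngII and 0.0440 to 0.0848% for AngII+LY libraries. Counting error on a library's family share was at most 0.0045 percentage points (width of the 95% Wilson interval, counting error only).

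Levels of different chains were compared per length, as counts per kb of annotated exon scaled to the same sum over all genes in each library. On this scale Col3a1, the type III chain, and Col1a1 and Col1a2, the chains of type I, led the Ctrl leaflets with 314 ± 155, 286 ± 102 and 193 ± 90.1 (mean ± SD, n = 4). Next came Col6a1, a chain of the beaded type VI filaments, at 141 ± 28.3, and Col4a1, the main basement membrane chain, at 138 ± 44.2. Col18a1, the type XVIII chain from which endostatin is cleaved, had a similar mean of 139 ± 207 that rested on Ctrl 1, since the 4 mice ran from 18.1 to 449. The levels of Col5a2, Col4a2, Col6a2 and Col5a1 followed at 74.5, 73.3, 57.0 and 53.7. Neighbours in this order overlapped among the Ctrl mice throughout the top 10, except that Col4a1 exceeded Col5a2 in each mouse without overlap of the ranges. With the longest coding transcript in place of all exons, Col1a1 and Col1a2 changed places and the same 3 chains led.

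The 10 highest chains carried 84.4% ± 0.721 of the family's level in Ctrl leaflets (SD, n = 4). The share of Col1a1, Col1a2 and Col3a1 together averaged 45.8% ± 4.49 for Ctrl, 50.6% ± 2.36 for LY, 42.6% ± 6.11 for AngII and 34.8% ± 4.30 for AngII+LY mice (SD, n = 4, 2, 4 and 4). It ran from 29.5 to 39.2% in AngII+LY and from 41.7 to 51.7% in Ctrl mice, which did not overlap, and from 35.7 to 49.8% in AngII mice, which overlapped AngII+LY. Col4a1 had 8.36% ± 1.89 of the level in Ctrl, 8.09% ± 1.40 in AngII and 14% ± 1.17 in AngII+LY mice. Its partner Col4a2 had 4.37% ± 1.06, 4.65% ± 0.947 and 8.60% ± 1.28. Col8a1 had 0.758% ± 0.105 in Ctrl, 3.13% ± 1.90 in AngII and 2.85% ± 0.863 in AngII+LY mice. These shares are a description without a test, from counts not corrected for GC content. After the GC correction described below, normalised counts of Col4a1 averaged 12044 in Ctrl, 18264 in AngII and 20028 in AngII+LY mice. Those of Col4a2 averaged 6032, 10697 and 11537. For both chains the AngII and AngII+LY ranges then overlapped.

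**Figure D1:**
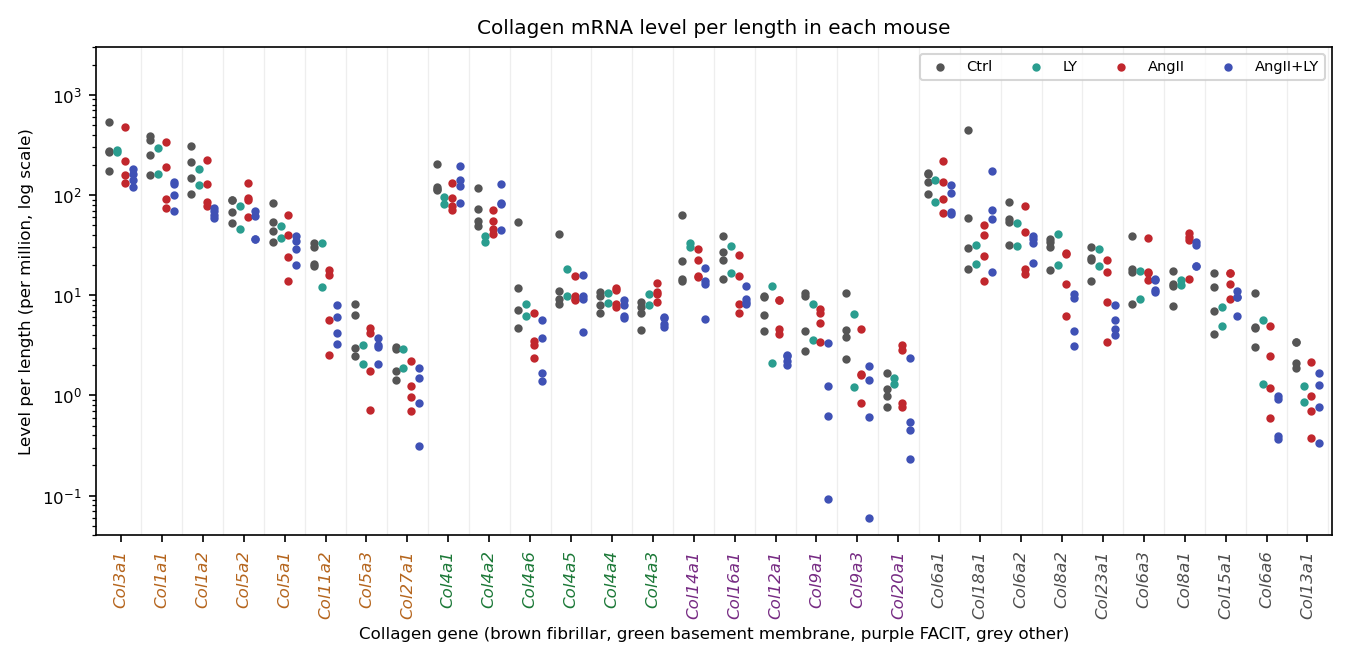
Level per length (counts per kb of exon, scaled to the same sum in each library, log axis) of the 30 collagen genes with a mean level of at least 1, with 1 point per mouse and colours for Ctrl, LY, AngII and AngII+LY. Col3a1, Col1a1 and Col1a2 lead among fibrillar chains, Col4a1 and Col4a2 among basement membrane chains and Col6a1 among the others, and Ctrl 1 stands at 449 for Col18a1.

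The promoters of the type V and type VIII pairs are shown side by side because their count ratios, given further on, did not overlap between AngII and Ctrl mice. Both ratios overlapped between these groups after a correction for GC content. Col4a1/Col4a2, which did not overlap between LY and Ctrl mice, is not shown. The 250 bases before the annotated start are given in GRCm39 on the gene's own strand, with every GC box in capitals (GGGCGG, or CCGCCC for the other strand). They lie at chr2:27776147-27776396 (plus strand, Col5a1), chr1:45542443-45542692 (minus strand, Col5a2), chr16:57575101-57575350 (minus strand, Col8a1) and chr4:126180309-126180558 (plus strand, Col8a2).
Col5a1: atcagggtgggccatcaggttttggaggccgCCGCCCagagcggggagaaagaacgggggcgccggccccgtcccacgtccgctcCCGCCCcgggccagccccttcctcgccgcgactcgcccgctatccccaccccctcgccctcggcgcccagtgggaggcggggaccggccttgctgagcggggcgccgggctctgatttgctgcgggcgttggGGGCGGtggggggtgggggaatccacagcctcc
Col5a2: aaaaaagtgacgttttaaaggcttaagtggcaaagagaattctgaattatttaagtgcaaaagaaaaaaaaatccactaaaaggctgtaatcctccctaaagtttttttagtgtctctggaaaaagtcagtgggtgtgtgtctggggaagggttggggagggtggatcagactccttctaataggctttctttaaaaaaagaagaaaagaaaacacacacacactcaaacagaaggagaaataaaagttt
Col8a1: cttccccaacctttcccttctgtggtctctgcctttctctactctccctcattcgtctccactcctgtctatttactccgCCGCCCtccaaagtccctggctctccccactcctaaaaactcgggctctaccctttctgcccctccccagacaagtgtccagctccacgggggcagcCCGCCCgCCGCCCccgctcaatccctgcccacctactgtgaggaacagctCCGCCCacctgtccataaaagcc
Col8a2: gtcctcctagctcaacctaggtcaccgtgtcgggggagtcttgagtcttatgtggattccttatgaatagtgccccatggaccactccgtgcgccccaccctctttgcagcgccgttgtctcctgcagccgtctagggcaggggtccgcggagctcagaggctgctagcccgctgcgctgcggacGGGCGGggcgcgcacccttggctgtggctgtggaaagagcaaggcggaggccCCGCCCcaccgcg
The window of Col5a1 held 3 GC boxes and 75.6% G or C, and that of Col5a2 held none and 36.0%. The windows of Col8a1 and Col8a2 held 4 and 2 GC boxes with 60.8 and 66.4% G or C. Over the family, 21 of 44 windows (47.7%) held a GC box, against 36.3% of 21751 protein-coding promoters. A CCAAT box (CCAAT or ATTGG) stood in 15 of 44 (34.1%) against 36.5%, and TATAAA or TTTATA in 7 of 44 (15.9%) against 11.9%. A match is a description of the sequence and not a binding site, and nothing is read from its absence.

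The first comparison asked what AngII infusion does to collagen mRNA. Col8a1, a chain of the network-forming type VIII collagen of vessel walls, had about 4-fold higher counts after AngII. Col4a3 and Col4a4 of the specialised basement membrane network, Col5a2 of type V and Col15a1 of the basement membrane zone also had higher means, while the abundant chains Col1a1, Col1a2 and Col3a1 differed by less than their spread. By edgeR none of the 39 chains, and none of the 19145 genes, was called at an adjusted p under 0.05 with an absolute log2 fold change above 0.5. At an unadjusted p under 0.05, 6 chains were higher and 3 lower, where 13.4% of all genes were higher and 11.7% lower. These 9 of 39 chains are 23.1%, near the 25.2% of all genes in either direction. The groups did not overlap for 5 chains, 3 higher and 2 lower, which is 12.8% of those tested against 15% of all genes (7.46% higher, 7.56% lower). DESeq2, the study's method, called 6 chains, 5 higher and 1 lower, against 13.9% of all genes (9.16% higher, 4.75% lower), and gave no adjusted p for 8. Without Ctrl 1, 7 of 38 chains were higher at an unadjusted p under 0.05 and none lower, where 11.5% of all genes were higher and 9.04% lower.

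Among the fibrillar chains, 2 of 10 tested were higher at an unadjusted p under 0.05 (Col5a2 and Col2a1), 1 was lower (Col11a2) and 7 did not pass, with a class median log2 fold change of -0.19 against -0.06 over all genes, or 0.21 against 0.08 after the GC correction described below. Of all genes, 13.4% were higher and 11.7% lower. Col5a2, which sets fibril diameter together with Col5a1, had normalised counts of 12894, 8878, 10726 and 14129.7 in the Ctrl mice and 17314, 21223, 17627 and 27182 in the AngII mice. Every AngII mouse lay above every Ctrl mouse. The log2 fold change was 0.84 ± 0.25 (SE), with an edgeR quasi-likelihood adjusted p of 0.0793. Col5a1 itself read 9364, 7184, 4175 and 5414 in Ctrl and 5714, 7972, 5456 and 3236 in AngII mice, overlapping, at -0.22 ± 0.28 on the log2 scale, or 0.36 after the GC correction. Col11a2, a minor chain of type XI, had 3199.8, 2240.2, 2168 and 3225 in Ctrl and 1937, 1920.0, 1095 and 513 in AngII mice. All 4 AngII mice lay below the Ctrl mice, at -0.98 ± 0.43 with an edgeR quasi-likelihood adjusted p of 0.170, and at -0.51 with overlapping groups after the GC correction. Col2a1, the cartilage chain, was listed at 0 in 3 AngII mice and at 467 in AngII 2, so its unadjusted p of 0.0218 rested on 1 library.

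The abundant fibrillar chains stayed within their spread between Ctrl and AngII. Col1a1 read 32354, 24938, 14924 and 33041 in Ctrl and 20565, 31804, 15648 and 13060.0 in AngII mice, with overlapping ranges. Its log2 fold change was -0.38 ± 0.31 with a 95% interval of -0.99 to 0.24, and the sign turned to 0.18 after the correction for GC content. Col1a2 read 50063, 28258, 18182 and 38628 in Ctrl and 26722, 40290.1, 25654 and 29220.4 in AngII mice, at -0.15 ± 0.27 on the log2 scale. Col3a1 read 70590.3, 43062, 25354 and 39687 in Ctrl and 37257, 70904, 42640.1 and 36176 in AngII mice, with the highest AngII value in AngII 2. Col3a1 differed by 0.07 ± 0.29 on the log2 scale (95% interval -0.51 to 0.64), or -0.14 after the GC correction.

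The type IV chains had values on both sides of 0. Col4a3, which with Col4a4 and Col4a5 forms the network known from the kidney filter, had 982, 681, 944 and 1212 in Ctrl and 1681, 1547, 3468 and 2283 in AngII mice. The groups did not overlap, and AngII 3 was highest. The log2 fold change was 1.23 ± 0.26, 2.35-fold, with an edgeR quasi-likelihood adjusted p of 0.0573 and an adjusted p of 0.000743 by DESeq2. Col4a4 read 1446, 1163, 1292 and 1772 in Ctrl and 1549, 1858, 3538 and 2356 in AngII mice, overlapping through AngII 1, at 0.71 ± 0.24 with an edgeR quasi-likelihood adjusted p of 0.100. Col4a1 and Col4a2 stood at -0.05 ± 0.20 and 0.05 ± 0.25, values that became 0.60 and 0.82 after the GC correction. Col4a6, a chain of smooth muscle basement membranes, read 5544, 861, 527 and 1339.8 in Ctrl and 458, 758, 666 and 509.6 in AngII mice, overlapping. Its log2 fold change of -1.79 ± 0.62 leaned on Ctrl 1, the mouse with the high smooth muscle markers, and without that mouse it was -0.60. The 6 smooth muscle markers were all detected, and they held 0.0236 to 0.935% of the counts of Ctrl libraries and 0.0166 to 0.0330% of those of AngII libraries. Their part in the Col4a6 value was not tested. Over the 6 type IV chains, 2 were higher and 1 lower at an unadjusted p under 0.05, against 13.4 and 11.7% of all genes. After the GC correction 4 were higher and 1 lower, against 10.4 and 3.94% of all genes. The corrected class median was 0.71, against 0.08 over all genes.

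Among the chains outside these classes, 2 of 15 were higher at an unadjusted p under 0.05 and none lower. Over all genes these shares were 13.4 and 11.7%. Col8a1 (chromosome 16, 57444621 to 57575100, minus strand) had 1762, 1469, 876 and 1449 in Ctrl and 1871, 4305, 8576 and 7501 in AngII mice. The lowest AngII mouse, AngII 1, lay just above the highest Ctrl mouse, and AngII 3 and AngII 4 were highest. These mice were also the highest of the AngII group for Col15a1 and Col4a3, and their mitochondrial shares were 24.7 and 25.5%, against 11.0 and 9.83% in AngII 1 and AngII 2. The part of this difference was not tested. For Col8a1 the log2 fold change was 2.0 ± 0.40, 4.00-fold, with an edgeR quasi-likelihood adjusted p of 0.0573 and an adjusted p of 0.000114 by DESeq2. It ran from 1.71 to 2.29 as each mouse outside the LY group was left out in turn. Col8a2, the other type VIII chain and a component of Descemet's membrane in the eye, read 2185, 2322, 1267 and 2645 in Ctrl and 2127, 1901, 1712 and 847 in AngII mice. Col8a2 differed by -0.35 ± 0.37 on the log2 scale, or 0.21 after the GC correction. Col15a1 read 1491, 1268, 404 and 693 in Ctrl and 1056, 1673, 2354 and 3153 in AngII mice, overlapping, at 1.09 ± 0.39 with an edgeR quasi-likelihood adjusted p of 0.114.

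Col18a1 read 40687, 6389.7, 2979 and 1829 in Ctrl and 1627, 5125, 4566 and 7610.3 in AngII mice. Ctrl 1 alone was high among the Ctrl mice, and the log2 fold change of -1.46 ± 0.83 became 0.34 without it. Of the type VI chains, Col6a1 read 12312, 11909, 8572 and 13440.1 in Ctrl and 12913, 18447, 10219 and 14317 in AngII mice, at 0.27 ± 0.24 on the log2 scale. Col6a2 read 11973, 9036, 4912 and 9055 in Ctrl and 7844, 12319.8, 5333 and 4867 in AngII mice, at -0.20 ± 0.32, or 0.24 after the GC correction. Among the 8 FACIT chains tested, 1 had an unadjusted p under 0.05: Col19a1, at 98.9, 33.3, 17.3 and 0 in Ctrl mice and listed at 0 in all AngII mice, for which no fold is given. Over all genes 25.2% had such a p in either direction. Col22a1, found at tissue junctions, had 85.0, 85.0, 89.7 and 35.9 in Ctrl and 14.5, 16.3, 32.4 and 6.62 in AngII mice, which did not overlap (edgeR unadjusted p = 0.105).

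**Figure D2:**
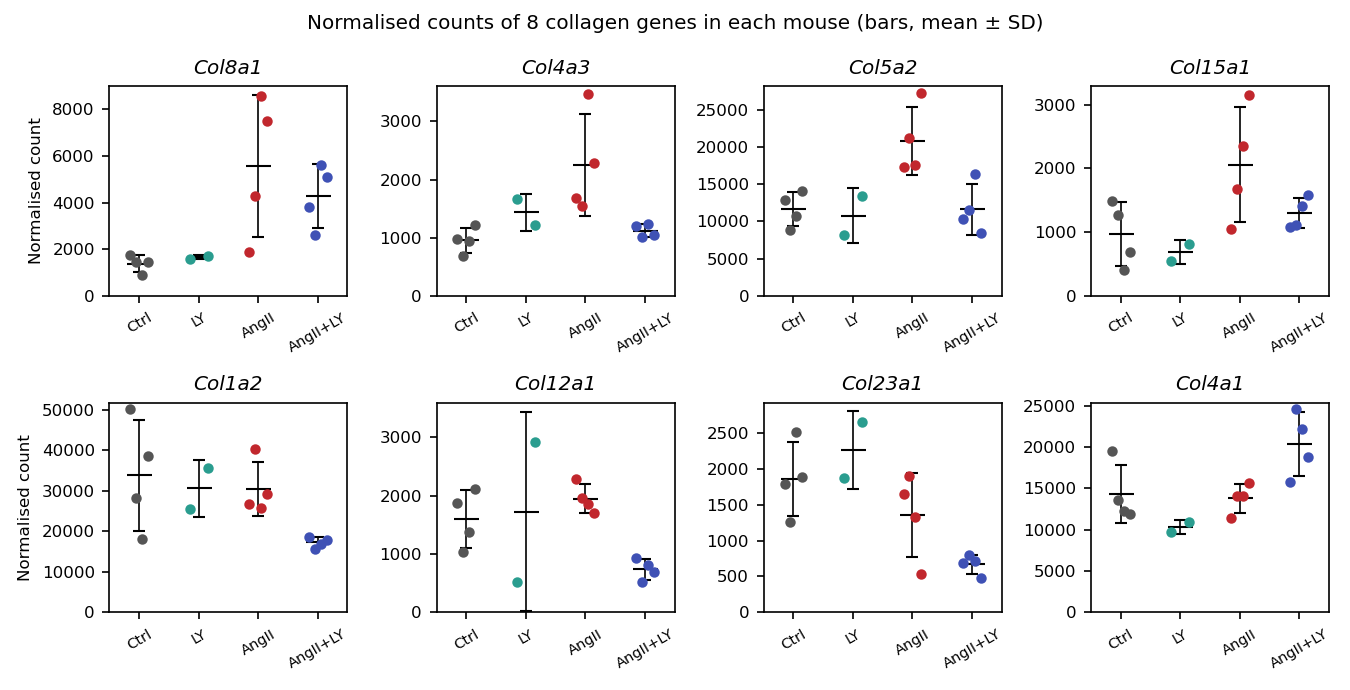
Normalised counts of 8 collagen genes in each mouse by group, with bars for the mean and SD. Col8a1, Col4a3 and Col5a2 lie above Ctrl in each AngII mouse, Col1a2 and Col12a1 lie lower in each AngII+LY mouse than in any AngII mouse, and Col4a1 lies higher.

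The next comparison asked what HTR2B blockade does to collagen mRNA during AngII. Col4a3, Col12a1, Col8a2, Col5a2, Col23a1, Col1a2, Col6a6 and Col9a1 had lower counts in AngII+LY than in AngII mice at an unadjusted p under 0.05, in order of p, and Col4a1, Col4a2 and Col19a1, the last through 1 library, had higher counts. No chain and no gene was called by edgeR. These are 3 chains higher and 8 lower, where 10.1% of all genes were higher and 12.4% lower. The 11 chains are 28.2% of those tested, against 22.5% of all genes. The groups did not overlap for 6 chains, 1 higher and 5 lower, which is 15.4% against 11.1% of all genes (5.45% higher, 5.66% lower). DESeq2 called 8 chains, 1 higher and 7 lower, against 10.9% of all genes (5.34% higher, 5.54% lower), and gave no adjusted p for 8. The median log2 fold change over the 39 chains was -0.38 against -0.02 over all genes, with 29 chains below 0 and 10 above. Without Ctrl 1, which enters through the shared fit, 2 of 38 chains were higher at an unadjusted p under 0.05 and 10 lower, against 9.75 and 11.9% of all genes.

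Of the 10 fibrillar chains tested, 2 were lower at an unadjusted p under 0.05, none higher, and 9 lay below 0. Over all genes 12.4% were lower and 10.1% higher. The class median was -0.52 on the log2 scale, against -0.02 over all genes. Col1a2 had 26722, 40290.1, 25654 and 29220.4 in AngII and 18715, 15621, 16802 and 17844 in AngII+LY mice. The AngII+LY mice were close to each other and all below the AngII mice. On the log2 scale the difference was -0.82 ± 0.27, 1.77-fold lower, with an edgeR quasi-likelihood adjusted p of 0.108. Col1a1, its partner chain, read 20565, 31804, 15648 and 13060.0 in AngII and 11343, 15015, 17986 and 13481 in AngII+LY mice, which overlapped, at -0.49 ± 0.31 on the log2 scale. Col3a1 read 37257, 70904, 42640.1 and 36176 in AngII and 31001, 27849.8, 30593 and 38501 in AngII+LY mice, at -0.55 ± 0.29 with a 95% interval of -1.12 to 0.02. Col5a2 read 10261, 11583, 16408 and 8376 in AngII+LY mice, each below every AngII mouse. Its log2 fold change was -0.84 ± 0.25 with an edgeR quasi-likelihood adjusted p of 0.0867, and -0.42 with overlapping groups after the GC correction. Col5a1 differed by -0.04 ± 0.28, with a 95% interval of -0.58 to 0.51.

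Col4a1 read 11440.4, 14065, 14038 and 15588 in AngII and 15753, 24624, 22228 and 18827 in AngII+LY mice. AngII+LY 1 was only just above the highest AngII mouse, and the groups did not overlap. Between the groups the log2 fold change was 0.56 ± 0.20 with an edgeR quasi-likelihood adjusted p of 0.127. Col4a2 read 6544, 7242, 7719.5 and 8818 in AngII and 8127, 15518, 12792 and 11988 in AngII+LY mice, overlapping through AngII+LY 1, at 0.68 ± 0.25 with an edgeR quasi-likelihood adjusted p of 0.134. After the GC correction both differences shrank to 0.13 and 0.11. Col4a3 had 1195, 1009, 1238 and 1049 in AngII+LY mice, all below the AngII mice and within the range of Ctrl 1 to Ctrl 4 but for the highest at 1238. Its log2 fold change was -1.0 ± 0.26, or -1.02 after the GC correction, with an edgeR quasi-likelihood adjusted p of 0.0671, the smallest of any chain in this comparison.

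The FACIT chain Col12a1, which coats type I fibrils, had 2284, 1962, 1851 and 1704 in AngII and 939, 513, 818 and 696 in AngII+LY mice. The highest AngII+LY mouse lay well below the lowest AngII mouse. The log2 fold change was -1.40 ± 0.40, 2.63-fold lower, with an edgeR quasi-likelihood adjusted p of 0.0807. Col9a1, a type IX chain, read 612, 483, 697 and 469.9 in AngII and 427, 53.3, 132 and 9.58 in AngII+LY mice, without overlap, at -1.87 ± 0.78 with an edgeR quasi-likelihood adjusted p of 0.176. Col16a1 read 1846, 2598, 1253 and 1592 in AngII and 1468, 1102, 1322 and 1861 in AngII+LY mice, at -0.34 ± 0.29 on the log2 scale. Col19a1 was above 0 only in AngII+LY 4 among the infused mice, and its unadjusted p of 0.0368 rested on that library.

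Col8a2 had 2127, 1901, 1712 and 847 in AngII and 394, 877, 1002 and 455 in AngII+LY mice. AngII 4 lay among the AngII+LY mice and the other 3 AngII mice lay above them. The log2 fold change was -1.27 ± 0.37, 2.42-fold lower, with an edgeR quasi-likelihood adjusted p of 0.0824. Col8a1 had 3824, 2601, 5624 and 5111 in AngII+LY mice against AngII values on either side of them, at -0.37 ± 0.39 with a 95% interval of -1.13 to 0.38. Col23a1, a transmembrane chain, read 1650.0, 1891, 1333 and 539 in AngII and 682, 797, 714 and 484 in AngII+LY mice, overlapping through AngII 4. It stood at -1.02 ± 0.33 with an edgeR quasi-likelihood adjusted p of 0.105. Col6a6, a late-found type VI chain, read 391, 676, 151 and 311 in AngII and 89.2, 148, 80.6 and 198 in AngII+LY mice, at -1.57 ± 0.54 with an edgeR quasi-likelihood adjusted p of 0.118. Col6a1 and Col6a2 differed by -0.38 ± 0.24 and -0.05 ± 0.32. Col15a1 read 1083, 1115, 1414 and 1577 and Col18a1 read 3011, 20369, 8651 and 10410.4 in AngII+LY mice, both overlapping AngII. The AngII+LY mice also had lower interstitial and higher cardiomyocyte marker shares than the AngII mice, as given above. The part of these shares in the chain values was not tested.

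**Figure D3:**
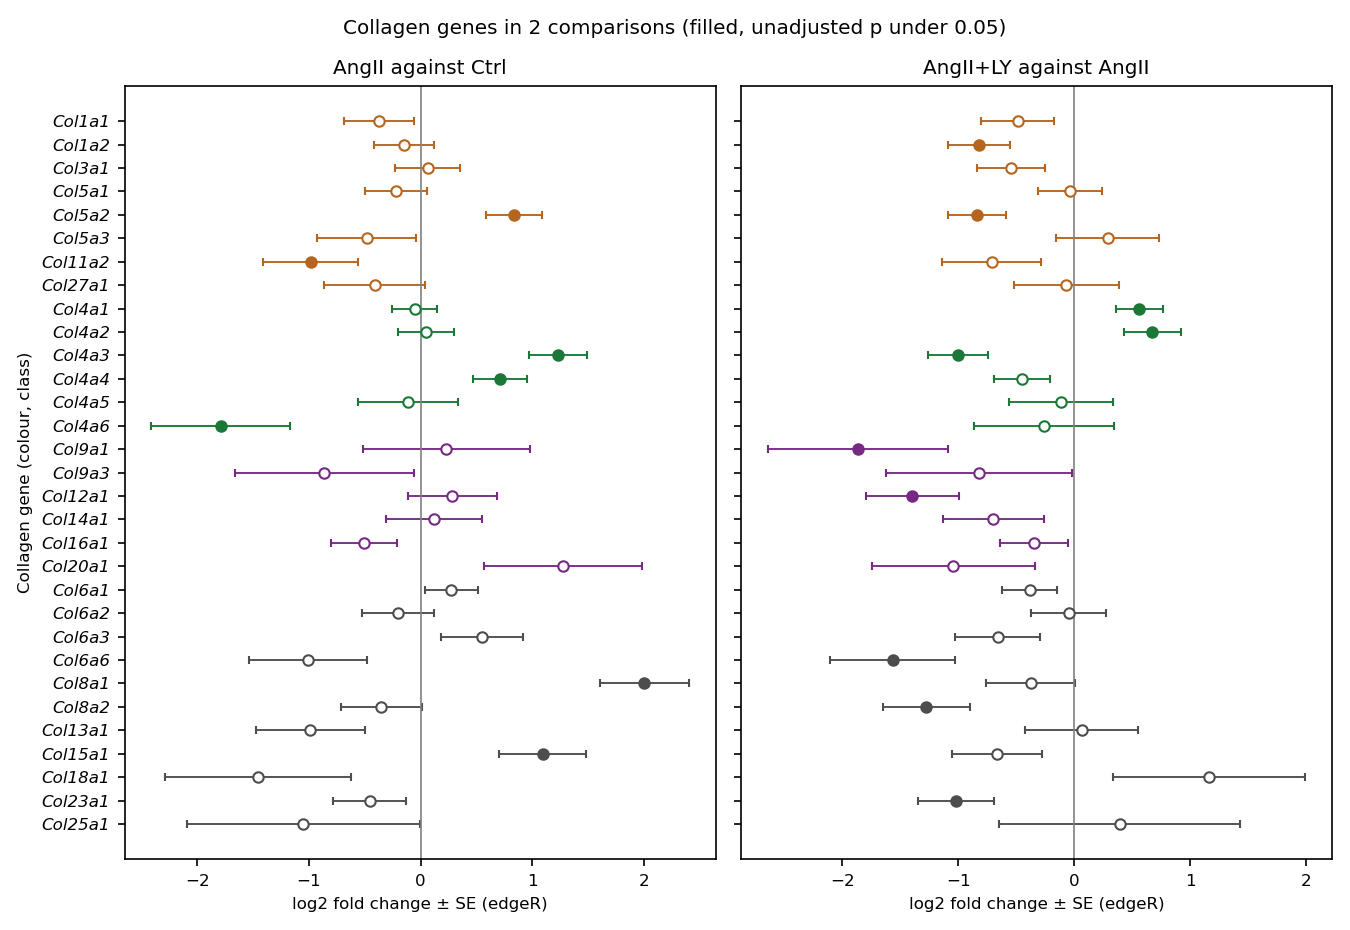
edgeR log2 fold change with SE for the 31 collagen genes with a mean normalised count of at least 100, in AngII against Ctrl (left) and AngII+LY against AngII (right), filled at an unadjusted p under 0.05. Col8a1 stands at 2.0 on the left and -0.37 on the right, Col4a3 and Col5a2 lie right of 0 on the left and left of 0 on the right, and the signs of Col1a1, Col3a1, Col4a1, Col5a1, Col5a3, Col6a2, Col8a2, Col16a1, Col23a1 and Col27a1 on the left, and of Col4a5 and Col13a1 on the right, turn after a GC correction.

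Against Ctrl, the AngII+LY mice had higher Col8a1 and lower Col6a6, Col8a2, Col23a1 and Col11a2. No chain and no gene was called by edgeR, with a smallest adjusted p of 0.177 among the chains. At an unadjusted p under 0.05, 4 chains were higher and 9 lower, which is 33.3% of the chains against 11.0% of all genes (4.89% higher, 6.14% lower). The groups did not overlap for 7 chains, 1 higher and 6 lower, which is 17.9% against 8.16% of all genes (3.27% higher, 4.89% lower). DESeq2 called 7 chains, 1 higher and 6 lower, against 1.79% of all genes (0.841% higher, 0.951% lower), and gave no adjusted p for 2. The median log2 fold change was -0.40 over the chains and -0.02 over all genes, and it was -0.10 over 38 chains with Ctrl 1 left out, of which 4 were higher and 7 lower at an unadjusted p under 0.05, against 3.24 and 4.32% of all genes.

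Col8a1 exceeded Ctrl in all 4 AngII+LY mice, at 1.63 ± 0.39 (3.09-fold), where AngII mice had stood at 2.0 ± 0.40 against the same Ctrl mice. Col8a2 was below Ctrl in all 4, at -1.63 ± 0.37, and AngII mice had stood at -0.35 ± 0.37. The lower chains without overlap were Col6a6 at -2.57 ± 0.56, Col11a2 at -1.70 ± 0.43, Col23a1 at -1.48 ± 0.33, Col12a1 at -1.11 ± 0.40 and Col13a1 at -0.92 ± 0.49. Col6a6 had read 1299, 687, 420.3 and 671 in the Ctrl mice and Col23a1 1787, 1256, 2514 and 1886, and Col12a1 had read 1871, 1031, 1381 and 2122. For all 3 chains the lowest Ctrl mouse lay above the highest AngII+LY mouse. Col1a2 stood at -0.97 ± 0.27 and Col1a1 at -0.86 ± 0.31, with unadjusted p of 0.00298 and 0.0157 and overlapping groups, because Ctrl 3 was as low as the AngII+LY mice. Col4a1 and Col4a2 stood at 0.51 ± 0.20 and 0.72 ± 0.25, with unadjusted p of 0.0241 and 0.0112. The remaining higher chain was the rare Col2a1, whose groups overlapped. It read 0, 0.833, 0 and 7.18 in Ctrl and 147, 49.7, 2.88 and 170 in AngII+LY mice. Col4a6 at -2.05 ± 0.63 had an unadjusted p of 0.00555, and without Ctrl 1 it stood at -0.86. Col16a1, with 3623, 2493, 1505 and 2756 in Ctrl mice, stood at -0.85 ± 0.30 with an unadjusted p of 0.0120. Col5a2 and Col4a3, both high after AngII alone, differed from Ctrl by 95% intervals of -0.49 to 0.49 and -0.27 to 0.74.

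LY272015 alone was given to 2 mice. At an unadjusted p under 0.05, 1 chain was lower and none higher, 2.56% of the chains against 1.39% of all genes (0.763% lower, 0.627% higher). edgeR and DESeq2 called 0 chains, where DESeq2 called 0.110% of all genes and edgeR none. Without Ctrl 1, 1 of 38 chains was higher and none lower at an unadjusted p under 0.05, against 0.545 and 0.581% of all genes. The lower chain was Col4a2, at 3963 and 4304 in LY and 10742, 7974, 5631 and 4977 in Ctrl mice, both LY mice below the lowest Ctrl mouse. Its log2 fold change was -0.83 ± 0.31 (edgeR unadjusted p = 0.0195, quasi-likelihood adjusted p of 1). Col4a1 read 9715 and 10959.5 in LY mice, also below all Ctrl mice, at -0.47 ± 0.25. Col4a3 read 1661 and 1215 in LY mice and lay above all Ctrl mice, at 0.59 ± 0.31. Groups did not overlap for 6 of the 39 chains, 2 higher and 4 lower, which is 15.4% against 12% of all genes (5.64% higher, 6.41% lower), and the remaining 3 were Col2a1 (higher), Col13a1 and Col22a1 (lower). The 95% intervals of Col1a1, Col3a1 and Col8a1 ran over -0.92 to 0.59, -0.71 to 0.69 and -0.66 to 1.18 on the log2 scale.

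A difference in the action of LY272015 between infused and uninfused mice was tested as an interaction, the AngII+LY against AngII difference less the LY against Ctrl difference. edgeR called no chain, and 9 of 39 chains (23.1%) had an unadjusted p under 0.05, against 13.3% of all genes. Type IV chains were among them in opposite directions. Col4a1 had an interaction of 1.03 ± 0.32 and Col4a2 of 1.5 ± 0.40 (log2 ± SE), and Col4a3 of -1.59 ± 0.40, each with an edgeR quasi-likelihood adjusted p of 0.295. Col12a1, Col8a2 and Col23a1 had -1.5, -1.47 and -1.30. Col18a1 had 3.32 ± 1.39, with Ctrl 1 in the LY against Ctrl term, and the rare chains Col19a1 and Col22a1 completed the 9. Among the LY, AngII and AngII+LY mice, Col19a1 was above 0 only in AngII+LY 4, at 63.2. Col22a1 read 267 in AngII+LY 4, where the next AngII+LY mouse had 31.7. After the GC correction 7 chains (17.9%), Col19a1 and Col22a1 among them, had an unadjusted p under 0.05, against 8.31% of all genes. Col4a1 and Col4a2, at 0.49 ± 0.41 and 0.80 ± 0.48, and Col18a1, at 2.45 ± 1.41, no longer passed, while Col4a3 stood at -1.66 ± 0.42. With 2 LY mice this term is the least precise of the fit.

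The balance of partner chains was followed as the log2 ratio of their counts within each mouse, which does not depend on library scaling. Of 8 ratios in 4 comparisons, 4 differences had groups without overlap and the smallest exact permutation p that 4 against 4 mice allow, 0.0286. None of the 32 passed a Benjamini-Hochberg adjustment, with 0.229 as the smallest adjusted p of these 2-sided exact permutation tests. With 2 LY mice the smallest possible p was 0.133. Given these smallest values, an adjusted p under 0.05 over the 32 was nearly out of reach, so nothing is read from its absence.

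For Col5a1 to Col5a2, the log2 ratio of the Ctrl mice was -0.46, -0.31, -1.36 and -1.38 and that of the LY mice -0.64 and -1.01. The AngII mice had -1.60, -1.41, -1.69 and -3.07, and the AngII+LY mice had -1.22, -1.01, -1.35 and -0.68. Each AngII mouse lay below every mouse of the other groups, and AngII 4 was lowest. The difference of the means was -1.07 for AngII against Ctrl and 0.88 for AngII+LY against AngII (exact permutation p = 0.0286 for each). The GC correction left differences of -0.13 and 0.10 with overlapping groups. The exon sequence of Col5a1 has 57.7% G or C and that of Col5a2 has 43.4%, while Col8a1 and Col8a2 have 45.3 and 59.4%.

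For Col8a1 to Col8a2, the log2 ratio of the Ctrl mice was -0.31, -0.66, -0.53 and -0.87 and that of the LY mice -0.02 and -0.89. The AngII mice had -0.18, 1.18, 2.32 and 3.15, and the AngII+LY mice had 3.28, 1.57, 2.49 and 3.49. All Ctrl mice had more Col8a2 than Col8a1 counts, and all AngII+LY mice the reverse. The mean was 2.21 higher in AngII and 3.30 higher in AngII+LY than in Ctrl mice (exact permutation p = 0.0286 for each). After the GC correction these were 1.44 with overlap (exact permutation p = 0.0857) and 3.22 without overlap. AngII+LY exceeded AngII by 1.09 (exact permutation p = 0.229).

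The other ratios overlapped in these comparisons, apart from Col4a1/Col4a2 in the LY mice. The Col3a1/Col1a1 ratio was 0.50 higher in AngII than in Ctrl mice (exact permutation p = 0.0571), and -0.35 after the GC correction. In AngII+LY against AngII it differed by -0.08 (exact permutation p = 0.8), and after the GC correction by 0.64 without overlap (exact permutation p = 0.0286, the smallest possible, or 0.366 adjusted over the 32). The Col1a1/Col1a2 ratio averaged -0.33 ± 0.20 in Ctrl and -0.65 ± 0.38 in AngII mice (SD, n = 4 each). Col4a1/Col4a2 stood at 1.0 ± 0.23, 0.86 ± 0.07 and 0.77 ± 0.14 in Ctrl, AngII and AngII+LY mice, while both LY mice, at 1.29 and 1.35, lay above Ctrl (exact permutation p = 0.133).

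**Figure D4:**
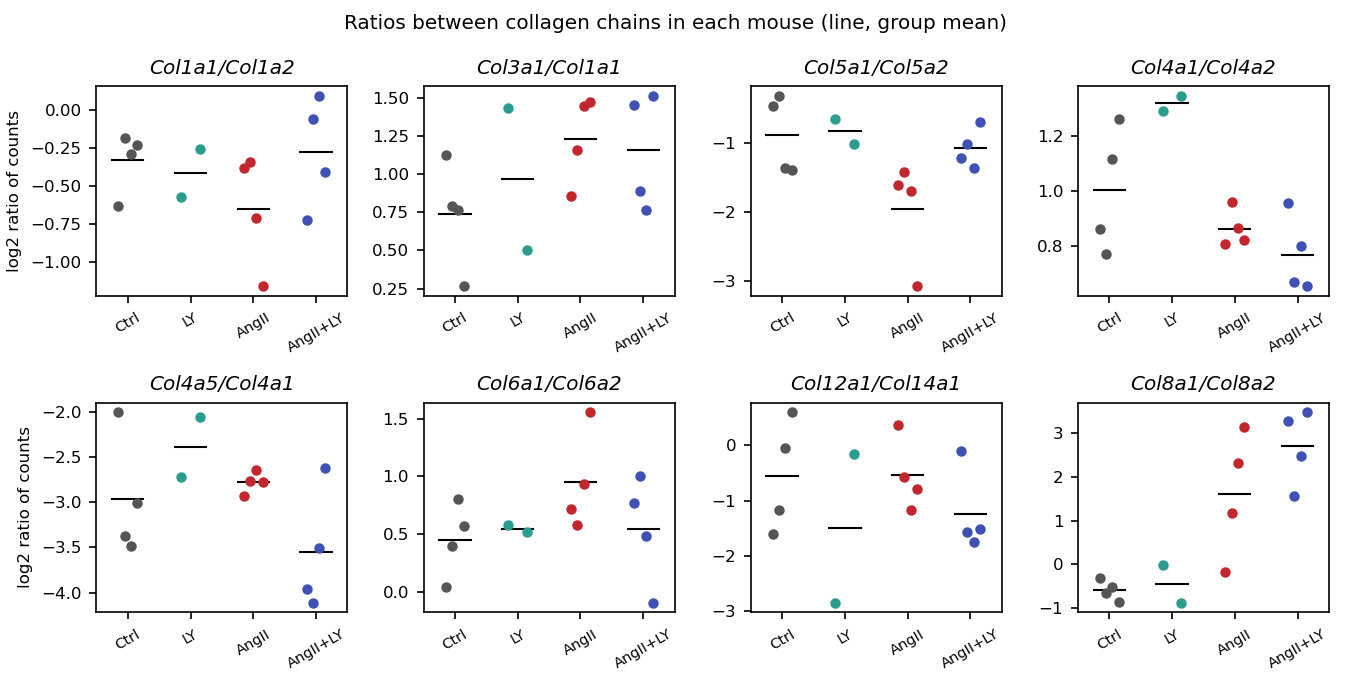
log2 ratio of the counts of 2 chains in each mouse, for 8 chain pairs, with lines for the group means. Col5a1/Col5a2 is lower in each AngII mouse than in any other mouse, between -3.07 and -1.41, and Col8a1/Col8a2 is above every Ctrl mouse in each AngII and AngII+LY mouse.

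Genes rich in G or C tended to have lower values after AngII in these libraries. The Spearman correlation between exon GC content and the AngII against Ctrl log2 fold change was -0.55 over 19043 genes and -0.31 over the 39 chains. For AngII+LY against AngII it was 0.44 and 0.25. The median GC content was 53.4% over the 44 chains and 48.6% over all genes tested. The chains ran from 43.4 to 62.3%, on both sides of the all-gene median. These are correlations across genes that share the same libraries. Counts were therefore also corrected for GC content in each library.

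After the correction, the median log2 fold change of AngII against Ctrl was 0.24 over the chains and 0.08 over all genes, where it had been -0.15 and -0.06. The sign turned for 10 of the 39 chains, and 25 lay above 0 where 17 had before. At an unadjusted p under 0.05, 11 chains were higher and 2 lower, against 10.4 and 3.94% of all genes. Type IV chains made up 4 of the higher and 1 of the lower. Col8a1, Col4a3, Col4a4, Col5a2 and Col15a1 stood at 1.87, 1.43, 1.05, 0.53 and 1.80. Col6a1 moved from 0.27 ± 0.24 to 0.78, without overlap.

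In AngII+LY against AngII, the corrected medians were -0.53 over the chains and 0.01 over all genes. Here 1 chain was higher and 15 were lower at an unadjusted p under 0.05, against 8.82 and 6.62% of all genes, and the sign turned for 2 chains. Col1a1 read -0.84, Col1a2 -0.54, Col12a1 -1.22, Col8a2 -1.64 and Col23a1 -1.26 on the log2 scale, all without overlap between the groups. In AngII+LY against Ctrl 4 chains were higher and 9 lower, against 9.92 and 3.87% of all genes, while the all-gene median moved from -0.02 to 0.13. In LY against Ctrl no chain had an unadjusted p under 0.05, against 1.47% of all genes. edgeR called no chain and no gene after the correction in any comparison.

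**Figure D5:**
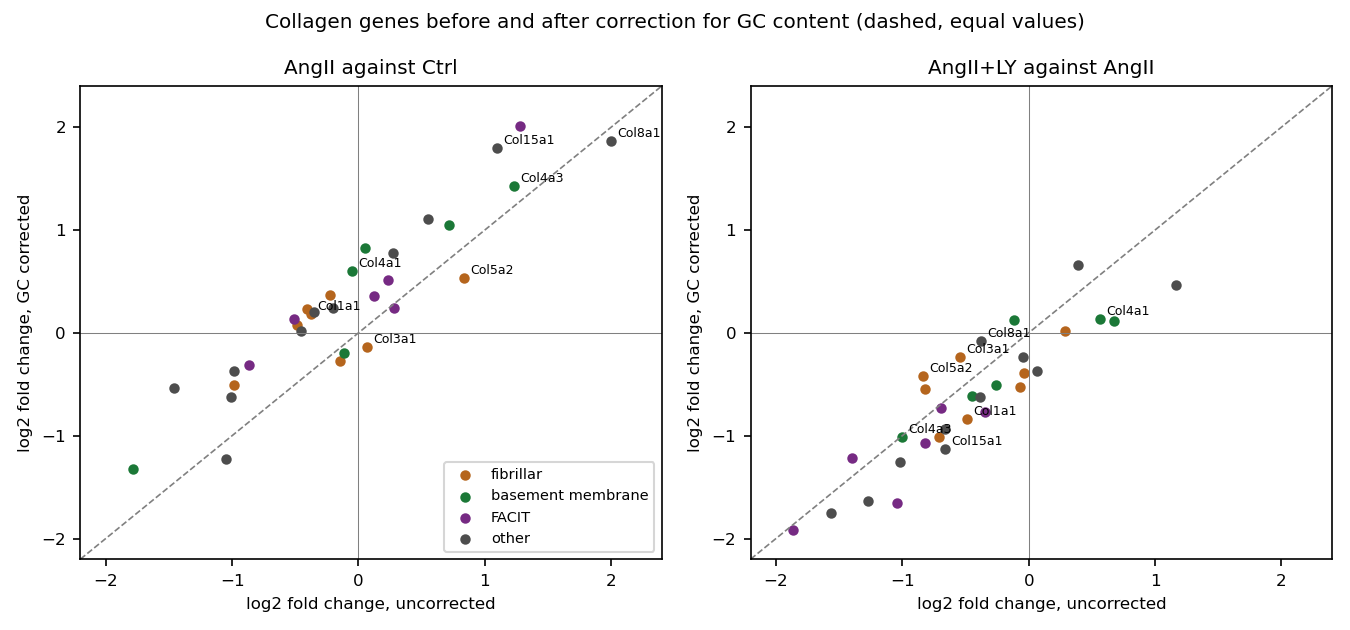
log2 fold change of collagen genes after the GC correction (vertical) against the uncorrected value (horizontal) for AngII against Ctrl (left) and AngII+LY against AngII (right), coloured by class, with a dashed line for equal values. On the left Col1a1 moves from -0.38 to 0.18 and Col4a1 from -0.05 to 0.60 while Col8a1 and Col4a3 stay high, and on the right most chains lie below 0 on both axes.

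The remaining 14 tested chains had no unadjusted p under 0.05 in any of the 4 comparisons, and they ran from -3.28 to 1.83 in AngII against Ctrl and from -1.28 to 2.88 in AngII+LY against AngII on the log2 scale. The most abundant of them were Col6a3, Col14a1 and Col4a5. Col6a3, the long type VI chain, read 6079, 3122, 1397 and 3108 in Ctrl and 2843, 6445, 5358 and 5393 in AngII mice, and 3445, 2842, 3745 and 2659 in AngII+LY mice. It stood at 0.55 ± 0.37 and -0.66 ± 0.37 in those comparisons, and at 1.11 and -0.93 after the GC correction. Col14a1, a FACIT chain of type I fibrils, stood at 0.12 ± 0.43 and -0.70 ± 0.43. Col4a5 stood at -0.11 ± 0.45 and -0.12 ± 0.45, with its highest count, 4866, in Ctrl 1. Among fibrillar chains Col5a3, Col27a1 and Col11a1 overlapped between the groups in all comparisons, as did the type IX chain Col9a3 and the FACIT chain Col20a1. The same held for Col7a1 of the anchoring fibrils, for Col6a5, and for Col25a1, Col26a1 and Col28a1. Col13a1, a transmembrane chain, read 206, 134, 142 and 228 in Ctrl, 65.2 and 91.0 in LY and 39.8, 133, 128 and 74.7 in AngII+LY mice.

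Chains with low counts carried little information. Col6a4 had counts in 1 library, with at most 2. Col17a1 had counts in 4 libraries, with at most 40, and Col24a1, Col9a2 and Col10a1 had counts in 7 each, with at most 39, 35 and 5. Col10a1 is the marker of hypertrophic cartilage. Col2a1 was above 0 in 9 libraries, and both LY mice, at 68.3 and 25.4, exceeded the Ctrl mice, whose highest was 7.18. The 8 chondrocyte markers held 0.0459 to 0.0692% of counts in Ctrl and 0.0482 to 0.0638% in LY mice, and Matn3 among them was at 0 in all 14 libraries. For the AngII libraries these markers took 0.0150 to 0.0552%, and for the AngII+LY libraries 0.0186 to 0.0306%, below every Ctrl mouse but overlapping AngII. Their part in the Col11a2 value of AngII+LY against Ctrl and the Col9a1 value of AngII+LY against AngII was not tested. For a library with no count, 3 counts correspond to normalised counts of 2.04 to 9.93.

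The genes that process collagen were taken from lists by role. Their values are from counts not corrected for GC content, except where the correction is named. Of 14 enzymes that hydroxylate and glycosylate the chains, 1 was higher and 2 lower at an unadjusted p under 0.05 in AngII against Ctrl, and 2 were lower in AngII+LY against AngII. Of all genes, 13.4% were higher and 11.7% lower in the first comparison, and 10.1% and 12.4% in the second. The list medians were -0.20 and -0.24, against -0.06 and -0.02 over all genes. Plod2, the lysyl hydroxylase of the telopeptides, stood at 0.82 ± 0.30 and then -1.05 ± 0.30 (log2 ± SE), with the second pair of groups not overlapping. Crtap and P3h3, of the prolyl 3-hydroxylation machinery, stood at -0.58 ± 0.22 and -0.75 ± 0.32 after AngII, or -0.07 and -0.21 after the GC correction. Ppib, which speeds helix folding, stood at -0.52 ± 0.19 in AngII+LY against AngII.

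Of 10 chaperones and export factors, 4 were higher and 3 lower at an unadjusted p under 0.05 after AngII (13.4 and 11.7% of all genes), and 4 were lower with LY272015 (12.4% of all genes). Mia3 and Mia2, which load procollagen into large transport carriers, stood at 0.61 ± 0.18 and 0.65 ± 0.19 after AngII and at -0.75 ± 0.18 and -0.80 ± 0.19 in AngII+LY against AngII. The edgeR quasi-likelihood adjusted p was 0.0743 and 0.0775, then 0.0588 and 0.0590. Hspa5, the general chaperone of the endoplasmic reticulum, stood at 0.60 ± 0.19 and -0.56 ± 0.19, without overlap in either. Creb3l1, a transcription factor for collagen genes, stood at -0.84 ± 0.33 after AngII. The list medians were 0.25 and -0.37.

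Propeptide removal and crosslinking were followed in 2 lists. Of 7 propeptide enzymes and enhancers tested among 10, 1 was lower at an unadjusted p under 0.05 after AngII, where 11.7% of all genes were lower, Adamts14 at -3.13 ± 1.21 with a mean of 9.31 normalised counts in AngII and 86.3 in Ctrl mice, and none passed with LY272015. Of the 5 lysyl oxidases none passed after AngII, and Loxl2 stood at -0.91 ± 0.30 in AngII+LY against AngII without overlap, the 1 that passed where 12.4% of all genes were lower. The medians of these lists were -0.53 and -0.20 after AngII, and 0.08 and -0.25 with LY272015.

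Of 11 collagen receptors, 2 were higher and 1 lower at an unadjusted p under 0.05 after AngII (13.4 and 11.7% of all genes), and 4 were lower with LY272015 (12.4%). Itgb1, the common beta chain of the collagen-binding integrins, stood at 0.93 ± 0.31 and -0.85 ± 0.31. Gp6, a platelet collagen receptor, stood at 3.63 ± 1.01 after AngII, where its mean of 3723 had an SD of 5939. Ddr2, a receptor kinase activated by fibrillar collagen, stood at -0.74 ± 0.32 and Itga10 at -1.14 ± 0.45 with LY272015. The list medians were 0.16 and -0.61.

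Of 12 fibril-associated matrix genes tested among 13, 1 was higher and 2 lower at an unadjusted p under 0.05 after AngII (13.4 and 11.7% of all genes), and 5 were lower with LY272015 (12.4%), with medians of -0.20 and -0.70. Lum and Dcn, leucine-rich proteoglycans on the fibril surface, stood at -1.46 ± 0.32 and -0.99 ± 0.29 in AngII+LY against AngII, without overlap, with edgeR quasi-likelihood adjusted p of 0.0588 and 0.0848. Fmod stood at -1.12 ± 0.33, also without overlap. Lum had been at 0.79 ± 0.32 after AngII, or 0.18 after the GC correction. Fn1 and Comp stood at -0.63 ± 0.21 and -1.19 ± 0.44 after AngII. Lum, Dcn and Prelp are also among the interstitial markers, whose summed share was lower in each AngII+LY mouse than in any AngII mouse.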

How the data were processed

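RNA from aortic valve leaflets of 14 mice (4 Ctrl, 2 LY, 4 AngII, 4 AngII+LY) had been sequenced. Per the submitters' processing notes, the authors used FastQC 0.12.1, HISAT2, featureCounts and DESeq2 with GRCm39, and other versions, the annotation and the strand setting are not given in the sources used here. The deposited table is announced as normalized, but it holds whole-number counts whose totals differ between libraries (20990655 to 73128220), so the deposited values were treated as raw counts, since no label settles it. An excess of even counts was seen, and counts divided by 2 were tried as an alternative.

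Gene symbols, exon lengths and GC content came from GENCODE vM39, which left 618 of 56941 genes unmatched. Genes averaging 10 or more counts were fitted with edgeR 4.0.16 in R 4.3.3 (TMM, default quasi-likelihood settings, 4 groups in 1 fit), with Benjamini-Hochberg adjustment over 19145 genes and calls where the adjusted p was below 0.05 and the log2 fold change beyond 0.5 in either direction. Normalised counts are counts scaled by TMM library size. Alternatives were DESeq2 1.42.0, limma 3.58.1, other filters and size factors, a replicate block, a loess correction for GC content in each library (span 0.3) and leaving out each Ctrl, AngII and AngII+LY mouse. The LY mice were not left out in turn. Chain ratios were compared by 2-sided exact permutation tests (scipy 1.17.1). Scripts were tested on simulated data. Wilson intervals on shares cover counting error only, and 95% intervals on log2 fold changes come from the edgeR SE across mice. They use a normal quantile and are therefore somewhat narrower than the quasi-likelihood test implies. The mice are labelled as separate samples, and p-values measure the spread between them.

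The members, classes and lists were chosen with earlier results of these data known, and the classes and lists are by function. Described with the value in each mouse were the 10 members highest per length and those with an unadjusted p under 0.05 in any pairwise comparison, or with groups not overlapping in the AngII or AngII+LY against AngII comparison, up to the 10 smallest p per comparison. Of each pathway list, up to 4 genes with the smallest unadjusted p were named.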

Additional observations from a re-analysis of the deposited data

Results flagged for a closer look

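In 25 collagen genes, the highest and lowest mouse of each group of 4 was compared with the rest by Dixon's test. Of 75 groups, 7 held a mouse past the critical value, 6 on the high and 1 on the low side. Chance flags about 5% of groups, or about 1 in 20.

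Ctrl 1 held both abundant cases. Its normalised count of Col18a1 was 40687, where the next Ctrl mouse had 6390, and of Col4a6 it was 5544, where the next had 1340. The same mouse had 0.935% of its counts on smooth muscle markers, and their part in these values was not tested. The remaining cases were rare chains. Col2a1 read 467 in AngII 2 with the other AngII mice at 0, and 7.18 in Ctrl 4 with the next Ctrl mouse at 0.833. Col19a1 read 63.2 in AngII+LY 4 with the other AngII+LY mice at 0. Col22a1 read 267 in AngII+LY 4, where the next mouse had 31.7, and 35.9 in Ctrl 4, below the next lowest Ctrl mouse at 85.0.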

How the results depend on the processing

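By edgeR as first fitted no chain was called in any comparison, and the counts of 5 chains were too low for a test. Of the values named for single chains and ratios under the other settings, 636 kept direction and side of the threshold, 20 lost and 18 gained an unadjusted p under 0.05, and 32 turned sign. With each Ctrl, AngII and AngII+LY mouse left out in turn these counts were 861, 27, 16 and 32. The LY mice were not left out. These counts include mice outside the groups compared, whose removal cannot change a ratio difference. The causes were not tested. The earlier quasi-likelihood method was the installed default, so that alternative gave the same values.

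Chains called in AngII against Ctrl numbered 0, but 6 by DESeq2, 2 by the newer quasi-likelihood method, 1 without a filter on low counts and 2 at a mean count of at least 100 (15.4, 5.13, 2.27 and 6.45% of the chains, against 13.9, 2.90, 0.377 and 7.16% of all genes). In AngII+LY against AngII DESeq2 called 8 and the mean count of at least 100 gave 1 (20.5 and 3.23%, against 10.9 and 3.77%). DESeq2 also called 7 in AngII+LY against Ctrl and 2 for the interaction (17.9 and 5.13%, against 1.79 and 1.06%). Leaving out mice gave 0 to 3 calls in AngII against Ctrl (2 without Ctrl 4, 3 without AngII 1, 2 without AngII 2, or 5.13, 7.69 and 5.13% against 4.22, 9 and 2.01% of all genes), 0 to 1 in AngII+LY against AngII (1 without AngII 1, 2.56 against 4.4%) and 0 elsewhere, ratios included. For the ratios an adjusted p under 0.05 was nearly out of reach at these group sizes, so nothing is read from that 0. At an unadjusted p under 0.05, leaving out mice gave 7 to 12, 9 to 13, 11 to 15 and 7 to 10 chains for AngII against Ctrl, AngII+LY against AngII, AngII+LY against Ctrl and the interaction. These are 17.9 to 30.8%, 23.1 to 33.3%, 28.9 to 38.5% and 17.9 to 25.6% of the chains. The shares over all genes were 16.5 to 29.6%, 16.6 to 25.4%, 7.56 to 13.4% and 9.50 to 16.6%. For LY against Ctrl the 1 chain became 1 to 5 with a mouse left out (5 without Ctrl 4, and 2 without Ctrl 3, AngII 2, AngII 3, AngII+LY 2 or AngII+LY 4), 4 by DESeq2 or without a filter, 3, 2 and 2 by limma with pseudocounts of 0.5, 1 and 10, 3 by the newer method, 5 with only these groups and 0 after the GC correction. The 5 chains without Ctrl 4 are 12.8%, against 1.99% of all genes, and 2 chains are 5.13% against 1.42 to 1.52%. DESeq2 and no filter gave 10.3 and 9.09%, against 2.24 and 1.94%. The limma settings gave 7.69, 5.13 and 5.13%, against 1.43, 1.38 and 1.41%, and the newer method 7.69% against 2.53%. With only these groups the chains are 12.8% against 3.51%, and after the GC correction 0 against 1.47%. The interaction had 5 by limma with pseudocounts of 0.5 and 1 (12.8% of the chains each time, against 11.6% of all genes). The AngII+LY mean share of counts was 0.329% over nuclear protein-coding genes and 0.279% over all.

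The labels share replicate numbers. Deviations from the group mean had correlations of -0.13 to 0.09 between same-numbered mice and of -0.11 to 0.20 between others. The 2 LY mice deviate in mirror image, so their pairs carry no information. No pairing by number was seen, but this check cannot exclude it. With the replicate block edgeR called no chain, and 7, 10, 3, 14 and 6 chains had an unadjusted p under 0.05 in the order AngII against Ctrl, AngII+LY against AngII, LY against Ctrl, AngII+LY against Ctrl and interaction (17.9, 25.6, 7.69, 35.9 and 15.4% of the chains, against 23.1, 19.6, 2.02, 9.96 and 13% of all genes). With the GC correction and the replicate block these were 9, 10, 2, 11 and 6 (23.1, 25.6, 5.13, 28.2 and 15.4%, against 12.1, 13, 1.86, 12.3 and 7.32%).

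The GC correction turned these AngII against Ctrl log2 values (with the block in parentheses): Col1a1 to 0.18 (0.18), Col3a1 to -0.14 (-0.11), Col5a1 to 0.36 (0.37), Col4a1 to 0.60 (0.565), Col16a1 to 0.13 (0.14), Col6a2 to 0.24 (0.22), Col8a2 to 0.205 (0.19) and Col23a1 to 0.0177. It turned the ratio differences of Col1a1/Col1a2 to 0.46, -0.31 and 0.0639 (AngII against Ctrl, AngII+LY against AngII, LY against Ctrl), of Col3a1/Col1a1 to -0.35 and 0.64 (the first pair of comparisons, exact permutation p = 0.314 and 0.0286), and of Col4a5/Col4a1 and Col12a1/Col14a1 to -0.49 and -0.25 (AngII against Ctrl). In AngII+LY against AngII, Col5a1 turned to 0.0206, 0.0206 and 0.0204 by limma at the pseudocounts in rising order, 0.01 with only these groups and 0.0341 with the block, and Col6a2 to 0.0274, 0.0274, 0.0272, 0.0047 and 0.0615.

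With mice left out, AngII against Ctrl ran from -0.36 to 0.10 for Col1a2, -0.21 to 0.38 for Col3a1, -0.44 to 0.0015 for Col5a1, -0.13 to 0.13 for Col4a1, -0.10 to 0.29 for Col4a2, -0.0159 to 0.48 for Col9a1 and -1.82 to 0.34 for Col18a1. AngII+LY against AngII ran from -0.23 to 0.18 for Col5a1, -0.15 to 2.61 for Col22a1 and -0.21 to 0.29 for Col6a2. Ratio differences ran from -0.0646 to 0.21 (Col1a1/Col1a2), -0.36 to 0.0034 (Col5a1/Col5a2) and -0.0651 to 0.30 (Col6a1/Col6a2) for AngII+LY against Ctrl, -0.11 to 0.25 (Col5a1/Col5a2) and -0.0418 to 0.21 (Col6a1/Col6a2) for LY against Ctrl, -0.20 to 0.0527 (Col3a1/Col1a1) for AngII+LY against AngII and -0.33 to 0.40 (Col12a1/Col14a1) for AngII against Ctrl.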

Other observations

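Among partner chains that lie head to head in the genome, Col4a1/Col4a2 and Col4a3/Col4a4 followed each other from mouse to mouse. Within groups, over 14 mice, the log2 counts of Col4a1 and Col4a2 had r = 0.934 and rho = 0.916 (permutation p = 0.00014 and 0.00017, Benjamini-Hochberg adjusted p = 0.000653 for r over 14 correlations). Without Ctrl 1 and AngII+LY 1, the mice farthest from the median of Col4a1, r was 0.869. Their annotated ends overlap by 356 bases on chromosome 8 on opposite strands, and those of Col4a3 and Col4a4 by 159 bases on chromosome 1, so that reads there cannot be told apart where counting ignored strand. Col4a3 and Col4a4 had r = 0.860 and rho = 0.807 (permutation p = 0.0059 and 0.013, adjusted p = 0.0165 for r), and r = 0.753 without AngII 2 and AngII 3. Col4a5 and Col4a6, 1281 bases apart on chromosome X, had r = 0.821 and rho = 0.609 (permutation p = 0.02 and 0.066), but r = 0.450 without Ctrl 1 and AngII+LY 4, so that this relation rested on those mice.

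The chains of type I, encoded on different chromosomes, had r = 0.756 and rho = 0.727 (permutation p = 0.013 and 0.035, adjusted p = 0.0303 for r), and r = 0.563 without Ctrl 3 and AngII 2. Col6a1 and Col6a2 had r = 0.635 and rho = 0.600 (permutation p = 0.04 and 0.057, adjusted p = 0.0622 for r), and r = 0.757 without AngII 3 and AngII+LY 4. No relation within groups was detectable at this number of mice for Col8a1 with Col8a2 (r = -0.158, rho = -0.147, permutation p = 0.66 for each, r = -0.042 without AngII 1 and AngII 3) or for Col3a1 with its neighbour Col5a2 (r = -0.034, rho = -0.235, permutation p = 0.9 and 0.43, r = -0.262 without Ctrl 1 and AngII 2). These values share libraries and depth and come from counts not corrected for GC content. They were not set against unrelated gene pairs, so nothing is read from them about head to head position.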
